A study of Rattus norvegicus with 4 samples.

Results

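The genes described are 8 chemokine receptors of leukocytes, chosen as the probes whose gene name in the array files is Ccr1, Ccr2, Ccr7, Cx3cr1, Cxcr3, Cxcr4, Cxcr5 or Cxcr6. Each receptor had 1 probe, so they make up 8 of the 30367 probes of the array, and all 8 were among the 12858 genes tested. RNA came from spleens of male WKAH rats aged 8 to 12 weeks, taken 24 h after an injection of liposomes (2 arrays) or of saline (2 arrays). In both groups beads with the antibody OX-6 first removed cells carrying MHC class II, and beads with OX-42 then kept cells carrying CD11b/c, a surface protein of myeloid cells. The labels call the cells splenocytes and the study title calls them splenic macrophages. The composition and dose of the liposomes and the number of rats behind each array are not given in the sources used here, so each p-value here reflects the spread among these arrays alone, which may be technical. The sample titles end in "exp" and a number, 1 or 2, and each number is held by 1 saline and 1 liposome array, which reads as 2 experiments with 1 array of each group. The comparison asked how levels of receptors carried by monocytes and levels of receptors carried by lymphocytes differed between liposome and saline arrays.

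Chemokine receptors are proteins of the cell membrane that couple to inhibitory G proteins and steer cells along gradients of small secreted proteins, the chemokines. Ccr2 releases monocytes from bone marrow and draws them to inflamed tissue, Cx3cr1 marks patrolling monocytes and many tissue macrophages and binds the membrane-bound chemokine fractalkine, and Ccr1 is carried by monocytes, macrophages and granulocytes. Among lymphocyte receptors, Ccr7 leads naive T cells and mature dendritic cells to T cell zones, Cxcr5 leads B cells and follicular helper T cells to follicles, Cxcr3 marks activated T cells and natural killer cells, and Cxcr6 marks T cells and natural killer cells that settle in tissue. Cxcr4, the receptor of Cxcl12, is carried by most leukocytes and was kept apart from both classes.

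The probes of 4 receptors are shown because the results turn on them. Ccr2 and Cx3cr1 passed the test, Ccr1 is the monocyte receptor that did not, and Cxcr3 is a lymphocyte receptor that differed between the title numbers. The last 30 of the 60 bases of the Cx3cr1 probe are given, with its run of the repeat CA in capitals. Sequences are 5′ to 3′ as in the array files.
Ccr2 probe: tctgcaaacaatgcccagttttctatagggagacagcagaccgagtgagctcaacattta
Ccr1 probe: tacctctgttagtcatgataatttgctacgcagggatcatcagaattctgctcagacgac
Cxcr3 probe: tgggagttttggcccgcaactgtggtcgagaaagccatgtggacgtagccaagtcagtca
Cx3cr1 probe, bases 31 to 60: aacagattCACACACACACACACACACACA
The CA run of the Cx3cr1 probe spans 22 bases up to its end, and the other 7 receptor probes held no run of 4 or more CA units. The GC content of the 8 probes ran from 43.3% to 55%.

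Of the 8 receptors, 5 have their probe on chromosome 8 of the rat assembly rn4. The Ccr1 probe lies at chr8:128694469-128694528 and the Ccr2 probe 199 kb away at chr8:128893805-128893864. The Cxcr6 probe lies at chr8:128570227-128570286, the Cx3cr1 probe at chr8:125033728-125033787 and the Cxcr5 probe at chr8:47485148-47485207. The Ccr7 probe lies at chr10:87925806-87925865, the Cxcr4 probe at chr13:41308900-41308959 and the Cxcr3 probe at chrX:89794887-89794946. No annotation of rn4 was used here, so exon or untranslated region is not given.

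The 4 arrays shared 1 slide and 1 scan, and 61.3% to 66.3% of non-control spots on each were well above background. Over all genes 621 were called higher and 522 lower, and with median scaling 852 and 442. With the title number as a block 1816 were called. Levels below are log2 processed intensities relative to the 75th percentile of the array, so a level of 0 is the 75th percentile and a probe's level is compared between arrays only, never with another probe's. Cd68, which encodes a lysosomal protein of macrophages, and Itgam, which encodes CD11b, were well above background on every array. Their levels were 4.88 to 5.83 and 1.55 to 2.33. Defining genes of lymphocytes were well above background on every array too, namely Cd3e of T cells and Ncr1 of natural killer cells, as was the MHC class II gene RT1-Da. By contrast, the macrophage markers Vsig4 and Marco and the MHC class II gene RT1-Ba were so on 0 arrays. The macrophage marker Mertk was so on 0 saline arrays. The other tested macrophage markers were well above background on every array, as was the MHC class II gene RT1-Db1.

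Of the 8 receptors, 2 fell on the liposome arrays, 0 rose and 6 did not pass limma's test at an adjusted p under 0.05, where 8.89% of all genes tested were called, 4.06% lower and 4.83% higher. Both that fell were monocyte receptors, Ccr2 and Cx3cr1. The third monocyte receptor, Ccr1, lay at nearly the same level in both groups, and 0 of 4 lymphocyte receptors passed limma's test, with 0 of them at an unadjusted p under 0.05. Over all 12858 genes tested, 4181 had an unadjusted p under 0.05. Cxcr4 lay slightly higher on the liposome arrays without passing. The groups did not overlap for 4 of the 8 receptors, against 65.5% of all genes tested. Of these 4, 3 lay lower (35.1% over all genes) and 1 lay higher (30.4%).

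**Figure D1:**
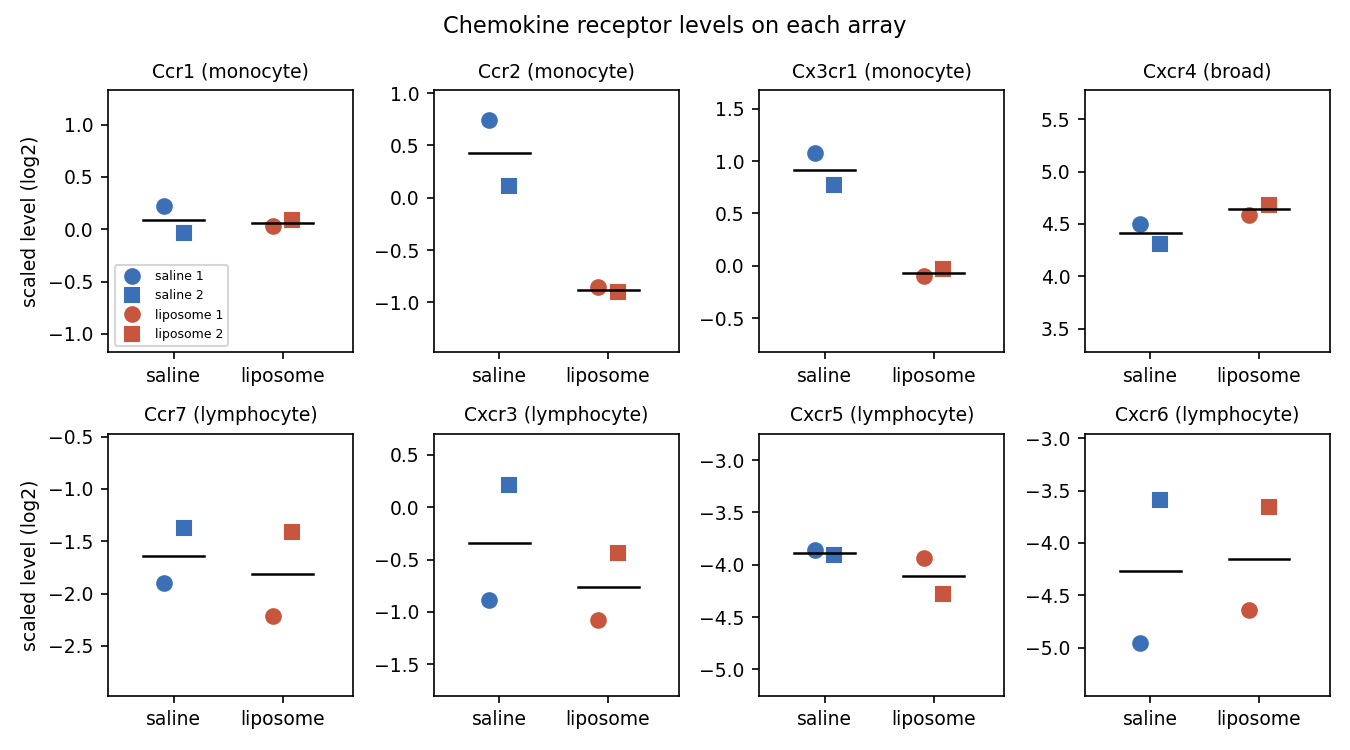
Scaled log2 level of each receptor on each array (vertical axis, 0 is the array's 75th percentile; every panel spans the same range), with saline arrays in blue, liposome arrays in red, circles for title number 1, squares for title number 2, and a line at each group's mean. Ccr2 and Cx3cr1 have both liposome arrays below both saline arrays, while Ccr7, Cxcr3 and Cxcr6 are higher on number 2 than on number 1 in each group.

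Ccr2, the receptor for Ccl2, had levels of 0.74 and 0.11 on saline 1 and saline 2 and of -0.85 and -0.90 on liposome 1 and liposome 2. Both liposome arrays lay below both saline arrays, with a gap of 0.97, and the saline arrays differed from each other by more than the liposome arrays did. The means were 0.43 ± 0.45 for saline and -0.88 ± 0.03 for liposome (SD, n = 2). In bulk samples, fewer cells of a type and less RNA per cell cannot be told apart. Ccr2 was 2.47-fold lower on the liposome arrays (log2 fold change -1.30 ± 0.24 SE, limma adjusted p = 0.0495, n = 2 per group). That adjusted p is close to the threshold, and it rose to 0.0559 with quantile normalization. Ccr2 had 1 probe, yet its adjusted p was 0.0502 when the other genes were given the mean of their probes. Without liposome 1 or liposome 2 the log2 fold change was -1.33 and -1.28 and the adjusted p 0.208 and 0.206, fits in which 0 of the 12858 genes passed limma's test and 2177 and 2397 had an unadjusted p under 0.05.

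Cx3cr1, the fractalkine receptor, had levels of 1.08 and 0.77 on saline 1 and saline 2 and of -0.10 and -0.03 on liposome 1 and liposome 2. The groups did not overlap, with a gap of 0.80. The means were 0.92 ± 0.22 for saline and -0.07 ± 0.05 for liposome (SD, n = 2). Cx3cr1 was 1.99-fold lower on the liposome arrays (log2 fold change -0.99 ± 0.14 SE, limma adjusted p = 0.0361, n = 2 per group). Without saline 1 the log2 fold change was -0.83 and the adjusted p 0.0578, and without liposome 1 or liposome 2 they were -0.95 and -1.03 and 0.19 and 0.174.

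Other probes with a CA run also lay lower on the liposome arrays. After the repeat in the Cx3cr1 probe was seen, all kept probes with 8 or more CA units in a row were gathered. There were 13 beside that of Cx3cr1, with runs of 21 to 39 bases. All 13 lay lower, whereas 54% of all kept probes did. All 13 also had groups that did not overlap, and 35.1% of all genes tested lay lower without overlap. Their log2 differences ran from -0.59 to -0.23 with a median of -0.50, and that of Cx3cr1, -0.99, lay outside this range. Relative to each probe's own mean, the median CA probe stood at 0.27 and 0.21 on the saline arrays and at -0.25 and -0.24 on the liposome arrays, where Cx3cr1 stood at 0.65, 0.34, -0.53 and -0.46. The geometric mean over the arrays of the processed intensity was 1040 to 16900 for the 13 probes, against 1380 for Cx3cr1. Those with a gene name included Glra2, a glycine receptor gene of neurons, and Cym, which encodes the stomach enzyme chymosin. The 10 kept probes with 8 or more TG units, the same repeat read from the other strand, had a median log2 difference of 0.24. The part of the CA run in the fall of Cx3cr1 was not tested.

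**Figure D2:**
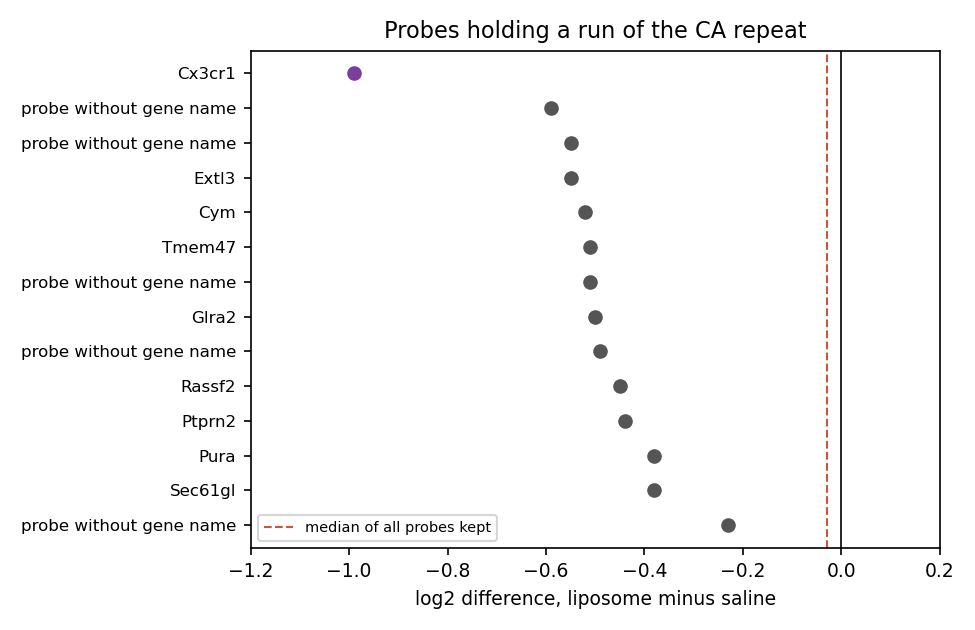
Difference in log2 level, liposome minus saline (horizontal axis), of each kept probe with 8 or more CA units in a row, 1 row per probe. Cx3cr1 (purple) lies at -0.99, the other 13 probes (grey) lie between -0.59 and -0.23, and the dashed line marks the median of all kept probes, -0.03.

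Ccr1, which binds Ccl3 and Ccl5, had levels of 0.22 and -0.04 on saline 1 and saline 2 and of 0.03 and 0.09 on liposome 1 and liposome 2. Both liposome levels lay between the saline levels. The log2 fold change was -0.03 ± 0.13 SE (limma adjusted p = 0.883, n = 2 per group), with a 95% interval of -0.38 to 0.32. The whole interval of Ccr1 lies above that of Ccr2, which ran from -1.94 to -0.66, and above that of Cx3cr1, which ran from -1.38 to -0.60. These differences between receptors were not tested.

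Cxcr4 had levels of 4.50 and 4.31 on saline 1 and saline 2 and of 4.59 and 4.68 on liposome 1 and liposome 2. The liposome arrays lay above the saline arrays by a gap of 0.09. The log2 fold change was 0.23 ± 0.12 SE (limma adjusted p = 0.252, n = 2 per group), with a 95% interval of -0.09 to 0.55.

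Cxcr3, a receptor of activated T cells and natural killer cells, had levels of -0.89 and 0.21 on saline 1 and saline 2 and of -1.08 and -0.44 on liposome 1 and liposome 2. The groups overlapped, and in each group the array with title number 2 was the higher. Liposome minus saline was -0.19 within number 1 and -0.65 within number 2. The log2 fold change was -0.42 ± 0.45 SE (limma adjusted p = 0.55, n = 2 per group), with a 95% interval of -1.62 to 0.79. Leaving out 1 array moved it between -0.97 and 0.13.

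Ccr7 had levels of -1.90 and -1.37 on saline 1 and saline 2 and of -2.21 and -1.41 on liposome 1 and liposome 2. The groups overlapped and number 2 was again the higher array in each. The log2 fold change was -0.17 ± 0.34 SE (limma adjusted p = 0.752, n = 2 per group), with a 95% interval of -1.10 to 0.75, and it lay between -0.57 and 0.23 with 1 array left out.

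Cxcr5 and Cxcr6 had low intensities. Cxcr5 had processed intensities of 66.2 and 66.1 on saline 1 and saline 2 and of 71.5 and 54.1 on liposome 1 and liposome 2, all well above background. On the scaled log2 scale its levels were -3.86, -3.91, -3.93 and -4.28, so the groups were apart by only 0.02. Its log2 fold change was -0.22 ± 0.15 SE (limma adjusted p = 0.367, n = 2 per group, 95% interval -0.64 to 0.19). Cxcr6 had processed intensities of 30.9 and 82.7 on saline 1 and saline 2 and of 43.8 and 83.2 on liposome 1 and liposome 2. On saline 1 it was not well above background, and both number 2 arrays lay above both number 1 arrays. Its log2 fold change was 0.12 ± 0.59 SE (limma adjusted p = 0.9, n = 2 per group), with a wide 95% interval of -1.46 to 1.71.

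As a class, the 3 monocyte receptors had a median log2 fold change of -0.99 and the 4 lymphocyte receptors one of -0.20, where the median over all genes tested was -0.04 and 53.9% of genes lay lower. The medians differed by -0.79, a difference that carries no test because the classes hold few genes chosen with earlier results of these data known. It was -0.33 without saline 1 and -1.26 without saline 2. Within title number 1 the medians were -1.18 for monocyte and -0.13 for lymphocyte receptors, and within number 2 they were -0.80 and -0.23. With 3 receptors, each monocyte median given here is the value of Cx3cr1, whose probe holds the CA run. The monocyte side of the class difference is therefore the value of that probe. The other 2 monocyte receptors, Ccr2 and Ccr1, had log2 fold changes of -1.30 and -0.03.

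**Figure D3:**
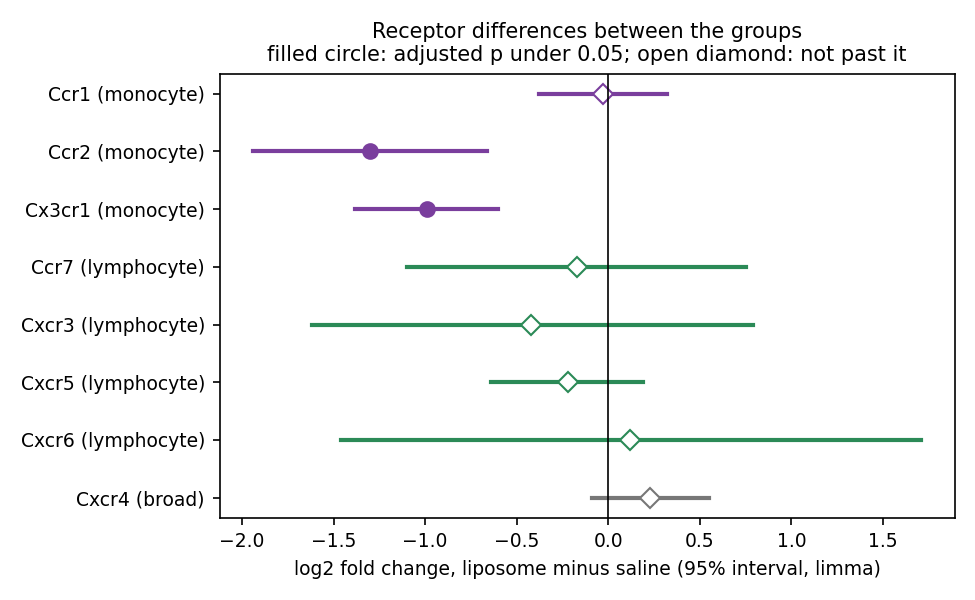
Log2 fold change, liposome minus saline, of each receptor (horizontal axis) with its 95% interval from limma, in purple for monocyte receptors, green for lymphocyte receptors and grey for Cxcr4. Filled circles passed an adjusted p under 0.05 and open diamonds did not, and the intervals of Ccr2 and Cx3cr1 are the ones that stay below 0.

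Most lymphocyte receptors differed by title number. Number 2 lay above number 1 in both groups for 3 of the 4, Ccr7, Cxcr3 and Cxcr6, whereas 24.6% of all genes tested did so. The difference, number 2 minus number 1 averaged over the groups, was 0.66 for Ccr7, 0.87 for Cxcr3 and 1.18 for Cxcr6. For Cxcr5 it was -0.20, and for the monocyte receptors it ran from -0.34 to -0.10. Of 15 tested T cell markers, 14 lay higher on number 2 in both groups, as did 8 of 9 natural killer cell markers. Cd3e, part of the T cell receptor complex, had levels of -1.35 and 0.03 on saline 1 and saline 2 and of -1.02 and 0.04 on liposome 1 and liposome 2. The titles write these numbers as "exp" 1 and 2 with no further explanation. The SE and intervals given above come from the fit without the number, so they include this difference. With the number as a block in the limma fit, 0 of the 4 lymphocyte receptors passed. Their adjusted p from limma was then 0.148 for Cxcr3, 0.38 for Ccr7, 0.289 for Cxcr5 and 0.571 for Cxcr6. The part of lymphocytes in the receptor values was not tested.

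**Figure D4:**
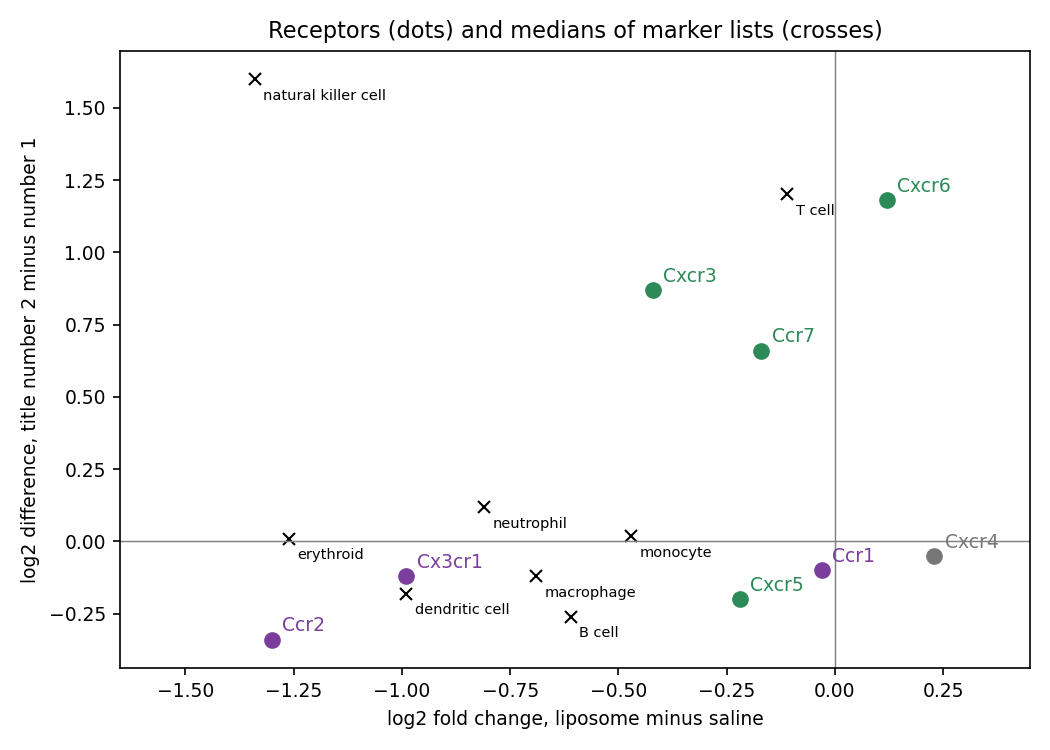
Log2 fold change, liposome minus saline (horizontal axis), against the log2 difference of title number 2 minus number 1 (vertical axis), for the 8 receptors (dots) and for the median of each list of cell type markers (crosses). Ccr7, Cxcr3 and Cxcr6 lie at 0.66 to 1.18 on the vertical axis near the T cell markers, and Ccr2 and Cx3cr1 lie far left, at -0.34 and -0.12 on it.

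Markers of the cells that carry these receptors were read beside them. The tested monocyte markers numbered 13, of which 3 fell and 0 rose, with a median log2 fold change of -0.47. With the title number as a block 4 passed. Without saline 1 or saline 2, 1 passed in each case, and with normexp 5 did. Their summed scaled intensity was 487 and 463 on the saline arrays and 388 and 414 on the liposome arrays. Such sums, here and below, add linear levels, so the brightest probes of a list weigh most. In this list that is Plac8, at levels of 7.81 to 7.87. Those that fell were Fcgr3a, an Fc receptor of monocytes, macrophages and natural killer cells, and the transcription factor genes Nr4a1 and Klf2, with log2 fold changes of -2.34, -1.16 and -1.08 (adjusted p from limma 0.00837, 0.0371 and 0.0361, n = 2 per group). Of the 13 tested, 10 lay lower. Vcan, Cd14 and Plac8 lay higher without passing, with log2 fold changes of 0.68, 0.55 and 0.02. The defining gene Csf1r, the receptor for the growth factor of monocytes and macrophages, had levels of 2.75 and 1.92 on the saline arrays and 2.03 and 1.81 on the liposome arrays. Those groups overlapped, with a log2 fold change of -0.42 ± 0.31 SE (limma adjusted p = 0.397, n = 2 per group) that was -0.83 without saline 2. F13a1, also in the list, was well above background on 1 array and was not tested. The part of the monocyte markers in the receptor result was not tested.

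Dendritic cells can carry Ccr7, Ccr2 and Cx3cr1, and 4 of their 7 tested markers fell, 1 rose and 2 did not pass (median log2 fold change -0.99). Their summed scaled intensity was 11.4 and 10.2 on the saline arrays and 5.81 and 5.14 on the liposome arrays. Clec10a, a lectin of dendritic cells and macrophages, and the cytokine receptor gene Flt3 had log2 fold changes of -1.99 and -0.99 (adjusted p from limma 0.0193 and 0.0267, n = 2 per group). The transcription factor genes Batf3 and Tcf4 each fell by 0.88 (adjusted p from limma 0.0495 and 0.0432), and Cadm1, an adhesion molecule gene, rose by 0.70. Batf3 did not pass with quantile normalization (0.0545) or when probes of a gene were averaged (0.0503), and in both settings 3 of the 7 markers passed. With normexp, and with the title number as a block, 7 of the 7 passed. Without saline 1 or saline 2, 3 and 1 of them passed. Zbtb46, a defining gene of the lineage, was well above background on 0 arrays. Their part in the receptor values was not tested.

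Markers of B and natural killer cells lay lower on the liposome arrays, and whether they passed depended on the block. With the title number as a block, 5 of 13 B cell markers and 7 of 9 natural killer cell markers passed limma's test, and without it 0 of either did. Without the block, 4181 of the 12858 genes tested had an unadjusted p under 0.05. Of 13 tested B cell markers all 13 lay lower and 0 passed limma's test over all genes without the block (2 with normexp), with a median of -0.61, summed scaled intensities of 92.8 and 89.0 on saline and 67.4 and 51.2 on liposome arrays, and 9 of them had an unadjusted p under 0.05. Of 9 natural killer cell markers all 9 lay lower, with a median of -1.34. Without the block 0 passed limma's test, and 0 had an unadjusted p under 0.05. Their sums were 65.2 and 125 on saline and 49.0 and 73.0 on liposome arrays. Tbx21, the brightest of these probes, had a log2 fold change of -0.06. Ncr1, an activating receptor, had levels of -2.01 and -0.55 on the saline arrays and -3.52 and -1.76 on the liposome arrays. Its log2 fold change was -1.36 ± 0.79 SE, with an adjusted p from limma of 0.299 without and 0.0167 with the block, and it ran from -2.24 to -0.48 with 1 array left out. Of 15 T cell markers 0 passed limma's test (0 at an unadjusted p under 0.05), with a median of -0.11 and sums of 27.4 and 70.2 on saline and 29.1 and 54.7 on liposome arrays. Beside the lymphocyte receptors, 10 of 15 T cell markers, 9 of 9 natural killer cell markers and 13 of 13 B cell markers lay lower. The T cell markers and most natural killer cell markers overlapped between the groups, and the B cell markers did not.

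Macrophage, neutrophil and erythroid lists gave the wider setting of the fraction. Of 12 macrophage markers 2 rose, 6 fell and 4 did not pass, and their summed scaled intensity was 112 and 114 on saline and 104 and 94.5 on liposome arrays. Folr2, a folate receptor, had a log2 fold change of 2.95, and Mertk, a receptor for dying cells whose saline spots did not stand well above background, was at least 6.38-fold higher. Cd5l and C1qc had log2 fold changes of -2.13 and -2.09. Of 10 neutrophil markers 6 fell and 0 rose (median -0.81), and of 6 erythroid markers 4 fell and 0 rose (median -1.26). With the title number as a block, 9 macrophage, 9 neutrophil and 5 erythroid markers passed. Without saline 1 or saline 2, 4 and 3 macrophage markers passed, and 2 neutrophil and 2 erythroid markers did in each case.

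Among the other chemokine receptors, fixed as a list of 15, 13 were on the array by name and 9 were tested. Of these 2 fell, 0 rose and 7 did not pass, with a median log2 fold change of -0.65. With normexp 5 passed, and with any 1 array left out 0 did. Ccr3, the eotaxin receptor of eosinophils, had levels of -1.24 and -1.50 on the saline arrays and -3.77 and -3.35 on the liposome arrays. It was 4.57-fold lower (log2 fold change -2.19 ± 0.19 SE, limma adjusted p = 0.0163, n = 2 per group), with both liposome arrays far below the saline arrays. Cxcr2, the main chemokine receptor of neutrophils, had levels of 1.87 and 1.70 on the saline arrays and 1.03 and 1.12 on the liposome arrays. It was 1.63-fold lower (limma adjusted p = 0.0423), beside neutrophil marker sums of 240 and 266 on saline and 143 and 155 on liposome arrays whose part in it was not tested. Leaving out saline 1 or saline 2 gave adjusted p-values of 0.0523 and 0.0519 for Ccr3 and 0.0805 and 0.0614 for Cxcr2.

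Neighbouring receptor genes differed in the size of their change. Between the probes of Ccr1 and Ccr2 lies that of Ccr3, at chr8:128769167-128769226 of rn4. In the order of the chromosome, Ccr9, Cxcr6, Ccr1, Ccr3 and Ccr2 had log2 fold changes of -0.37, 0.12, -0.03, -2.19 and -1.30. Those of Ccr3 and Ccr2 passed the test, and the differences between genes were not tested.

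Of the 16 ligands listed for the 8 receptors, 11 were tested, 1 rose, 0 fell and 10 did not pass (median log2 fold change -0.19). Ccl9, a rodent ligand of Ccr1, rose from levels of -3.47 and -3.25 on the saline arrays to 1.76 and 2.31 on the liposome arrays (log2 fold change 5.40 ± 0.22 SE, limma adjusted p = 0.00752, n = 2 per group), while Ccr1 itself lay at -0.03. Ccl3 and Ccl6, also ligands of Ccr1, had log2 fold changes of -0.19 and -0.05, and Ccl5, another of its ligands, one of -1.54 ± 0.81 SE. Its levels were 5.49 and 7.12 on the saline arrays and 3.91 and 5.61 on the liposome arrays, so the groups overlapped while each liposome array lay below the saline array of its number. Ccl5 did not pass without the block (limma adjusted p = 0.265, n = 2 per group) and passed with it (0.0107), and its log2 fold change ran from -2.39 to -0.69 with 1 array left out.

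The Ccr2 ligands did not pass. Ccl2, the main one, had levels of 5.33 and 4.35 on the saline arrays and 4.91 and 4.57 on the liposome arrays, which overlapped (log2 fold change -0.10 ± 0.37 SE, limma adjusted p = 0.869, n = 2 per group, and 0.39 as log2 fold change without saline 1). Ccl12 had levels of -2.75 and -4.28 on the saline arrays and -1.53 and -1.16 on the liposome arrays (log2 fold change 2.17 ± 0.55 SE, limma adjusted p = 0.0817, and 0.0376 without saline 1, where the log2 fold change was 2.93). Ccl7 had a log2 fold change of 0.64 ± 0.35 SE, which was 1.12 without saline 1 and 0.16 without saline 2.

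The interferon-induced ligands of Cxcr3 did not pass, with log2 fold changes of -1.28 for Cxcl10, -1.36 for Cxcl11 and -0.25 for Cxcl9 (limma adjusted p = 0.1, 0.144 and 0.697, n = 2 per group). Without saline 1 these were -0.81, -0.74 and 0.29, so Cxcl9 turned direction, and its groups overlapped. Cxcl16, the ligand of Cxcr6, had one of -0.33. The remaining 5 ligands, Cx3cl1, Ccl19, Ccl21, Cxcl12 and Cxcl13, which are made mostly by stromal or endothelial cells, were well above background on 1 array at most and were not tested.

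**Figure D5:**
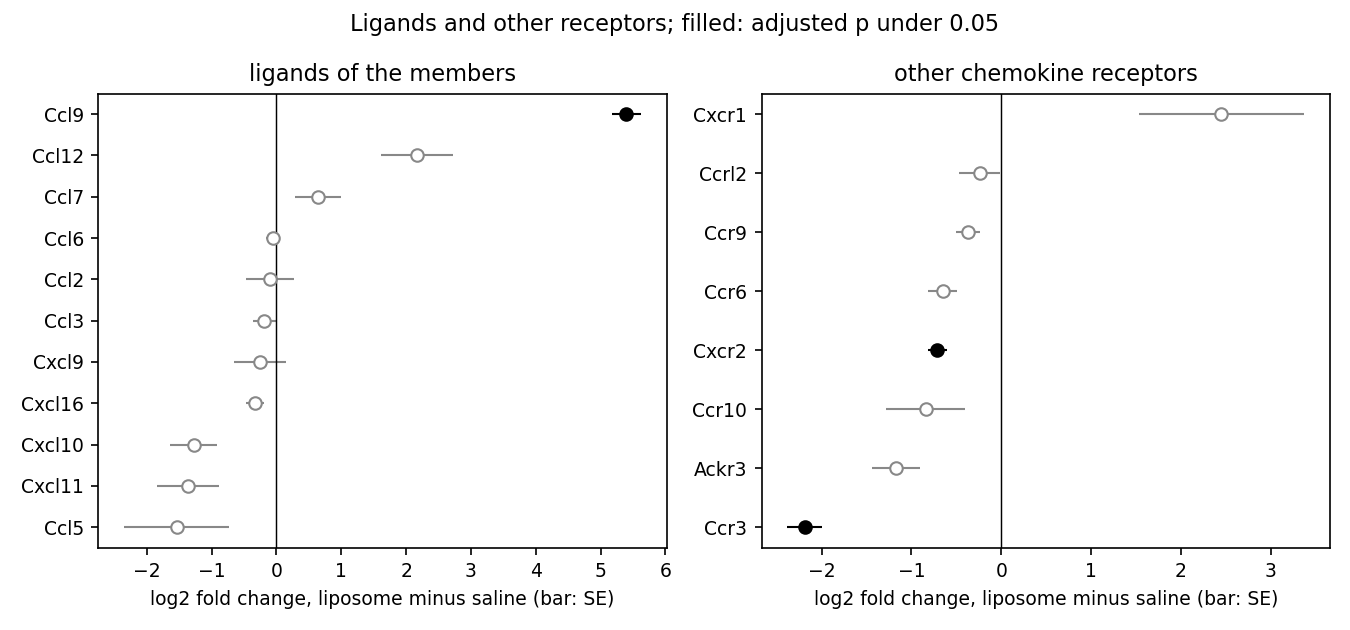
Log2 fold change, liposome minus saline (horizontal axis, bars are limma standard errors, n = 2 arrays per group), of the 11 tested ligands of the 8 receptors (left) and of 8 of the 9 other chemokine receptors tested (right). Filled points passed an adjusted p under 0.05, which are Ccl9 at 5.40 on the left and Ccr3 at -2.19 and Cxcr2 at -0.71 on the right, where the point of Cxcr1 is a fitted value against spots not well above background.

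Cxcr1, a chemokine receptor of neutrophils, did not stand well above background on either saline array. It was at least 3.22-fold higher on the liposome arrays and did not pass (limma adjusted p = 0.159, n = 2 per group). The other receptors that did not pass were Ackr3, Ccr10, Ccr6, Ccr9 and Ccrl2, at -1.17, -0.84, -0.65, -0.37 and -0.24. Ccr4, Ccr8, Xcr1 and Ackr2 were well above background on 1 array at most and were not tested.

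Of 22 tested genes that carry or end the signal of these receptors, 2 fell, 0 rose and 20 did not pass, with a median log2 fold change of -0.16. With the title number as a block 4 passed, and with averaged probes 1 did. Rgs3, which speeds the shut-off of G proteins, and Grk6, a kinase that marks active receptors for arrestin, had log2 fold changes of -0.94 and -0.68 (adjusted p from limma 0.0216 and 0.035, n = 2 per group). Without saline 1 or saline 2 the adjusted p was 0.0534 and 0.0519 for Rgs3 and 0.0739 and 0.0653 for Grk6. The probes of Rgs3 differed, and with their mean its log2 fold change was -0.54 (adjusted p = 0.201). Gnai2, the main inhibitory G protein subunit of leukocytes, had levels of 7.11 and 6.99 on the saline arrays and 6.88 and 6.95 on the liposome arrays (limma adjusted p = 0.415).

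The start regions of the receptor genes were read in the RefSeq promoter table on the assembly GRCr8, which matched 6 of the 8 receptors. Ccr7 and Cxcr5 had no entry. The 250 bases before the start are shown for Ccr2 and Cx3cr1, the receptors that fell, with matches to any of 4 searched motifs in capitals. The motifs, searched on both strands, were the ETS core AGGAAG, the C/EBP motif TTGCNNAA, the RUNX motif TGTGGT and the TATA box TATAAA.
Ccr2, chr8:132611953-132612202, plus strand: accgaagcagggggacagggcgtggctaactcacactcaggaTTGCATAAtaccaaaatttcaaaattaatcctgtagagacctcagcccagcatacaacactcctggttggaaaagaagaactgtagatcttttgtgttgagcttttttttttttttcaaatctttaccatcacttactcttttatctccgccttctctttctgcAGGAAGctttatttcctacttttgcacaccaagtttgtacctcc
Cx3cr1, chr8:128677067-128677316, minus strand: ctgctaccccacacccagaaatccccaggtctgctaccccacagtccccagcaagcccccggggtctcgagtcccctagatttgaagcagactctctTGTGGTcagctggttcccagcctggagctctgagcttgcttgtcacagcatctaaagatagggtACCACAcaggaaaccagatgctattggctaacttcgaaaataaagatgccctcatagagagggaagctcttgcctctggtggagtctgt
Ccr2 held the ETS core, found in 29.4% of all 27457 windows of this length, and the C/EBP motif, found in 9.2%. Cx3cr1 held the RUNX motif at 2 places, a motif found in 14.1% of windows and also in that of Ccr1, which did not pass the test. None of the 4 motifs was shared by the Ccr2 and Cx3cr1 windows. A match is a description of the letters only.

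The genes whose profile over the 4 arrays was most like that of a receptor were found by the root mean square difference of log2 levels, each centred on its own mean, among 12167 other genes well above background on all arrays. For Ccr2 they were Gprc5d, C3 and Pon1, at 0.044 to 0.056, and 16 genes lay within 0.1. For Cx3cr1 they were Plcb1, RGD1563400 and Lypd8l1, at 0.015 to 0.022, with 64 genes within 0.1. For Ccr7 they were Ikzf3, Il17re and Ptprv, with 16 genes within 0.1. For Cxcr3 they were Prnp, Lime1 and Phlda2, with 12 genes within 0.1. The flat profiles of Ccr1, Cxcr4 and Cxcr5 had 1543, 1299 and 429 genes within 0.1, so their nearest genes single out little. Cxcr6 was left out because it was not well above background on saline 1.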

How the data were processed

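Per the submitters' processing notes, scanner images went through Agilent Feature Extraction 10.7.3.1. Each deposited value is a linear intensity of 1 colour (Cy3, from 0.2 ug of RNA). Per the file headers, spatial trends were removed within each array and surrogate values were in use for low spots. Here, control spots and outlier spots (1.14% to 1.36%) were dropped, repeat spots were averaged by probe, and the 75th percentile of each array was subtracted from the log2 intensity. A probe entered if some group had both its arrays well above background, and 278 probes missing a value on any array were dropped. The reference table named 18006 probes by accession, the files named 8186, and 4175 had no name. A gene with several probes took the brightest. A fold is given as "at least" where a group was not well above background on either array, against the higher of the probe's own level and the lowest level well above background.

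The model for 12858 genes used limma 3.58.1 under R 4.3.3 (lmFit, eBayes; 2.26 prior and 2 residual degrees of freedom), with Benjamini-Hochberg adjustment over all genes, a threshold of 0.05 and 95% intervals. The fit was tested on simulated data with independent noise on each array and no difference between title numbers, unlike the data here. The titles' "exp" numbers pair 1 saline with 1 liposome array. Deviations of saline 1 and liposome 1 from their group means correlated at 0.355. A fit with the number as a replicate block is given for the receptors and for lists whose count it changed. With 2 arrays a group, the smallest exact two-sided permutation p is 0.333, and that test was not run. The members and lists were chosen with earlier results of these data known. Beside the members, the text names tested ligands, up to 4 called genes of each other list with the largest change, defining markers, and genes most like a member. Exceptions picked after their values were seen are the CA-run probes, Cadm1, RT1-Da, Cd68, Gnai2, Tbx21 and undetected markers. The receptors and B cell markers that did not pass, and the monocyte markers that lay higher, were picked so too. Alternatives were other scalings, normexp, filters on dim probes, the probe rule, a replicate block and leaving out each array. For arrays, their number limits the precision. Results for 2 genes are not reported here.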

Additional observations from a re-analysis of the deposited data

How the results depend on the processing

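Ccr2 and Cx3cr1 stayed lower under every alternative run, with log2 fold changes of -1.34 to -1.22 and -1.03 to -0.91, and of -1.62 to -0.99 and -1.15 to -0.83 with 1 array left out. The count of receptors called was 2, and 1 with quantile normalization or when probes of a gene were averaged. Without the filter on dim probes it was 0, since limma called 0 of 21971 genes there (smallest adjusted p 0.143, 3005 at unadjusted p under 0.05). With 1 array left out it ran from 0 to 2. The count of genes called was 1143, 1740 with normexp and 0 to 499 with 1 array left out. The single array left in a group is then assumed to vary as the other group does. Median scaling left 65.8% of called genes higher, against 54.3%. The fit with the number as a replicate block called 1816 genes, with adjusted p-values of 0.0292 for Ccr2 and 0.0309 for Cx3cr1, and the block changed the call of 0 of the 8 receptors. Cxcr6, Ccr1, Ccr7 and Cxcr3 changed sign between these fits, and none of the 4 passed in any of them. The difference between the class medians ran from -0.89 to -0.74 under the other settings and from -1.26 to -0.33 with 1 array left out. Leaving out probes named only by an accession, chosen after seeing the data, gave adjusted p-values of 0.0474 and 0.034 for Ccr2 and Cx3cr1. The causes were not tested.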
